A study of Mus musculus with 15 samples.

Results

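Constant intermediate stretches are places on the mouse autosomes that were called int, the class between closed (het) and open (euch) chromatin, in each of 3 hepatocyte maps. They were taken as runs of adjacent 2 kb bins that were int in every map, at least 4 kb and less than 100 kb long. There were 1019 such runs, of 2049 runs of any length that were int in all 3 maps, and they covered 9.60 Mb. The maps themselves held 111567 autosomal domains of all classes in the P14 knockout, 85333 in the 2-month wild type and 121317 in the P14 wild type. Just outside the limits lay 998 runs of 2 kb and, at the upper end, a pair of 128 kb, while 686 runs of 4 kb and 1 of 98 kb lay just inside. Since the runs were chosen from the class calls, their own class and the class of their neighbours are descriptions, and no test was made on them.

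The maps came from srHC-seq, which sonicates crosslinked chromatin and separates the DNA by fragment size, so that compact, sonication-resistant chromatin is told from open chromatin. The 3 groups were P14 hepatocytes of the genotype Alb-Cre;Ezh1-/-;Ezh2f/f (2 males and 3 females at postnatal day 14), wild-type hepatocytes at 2 months (2 males and 3 females), and wild-type hepatocytes at P14 (3 males and 2 females). In the first group Ezh1 is lost in the whole animal, and Ezh2 is deleted by a Cre driven by the albumin promoter, which is active in hepatocytes. Per the labels' protocols all cells were isolated by perfusion of the liver, straining and slow centrifugation, with no sort named. Each group was represented by 1 map that was read as a pool of its 5 mice, so no difference between groups could be set against the spread between mice. The lists hold class calls without read counts, so the depth behind a call is unknown, and the labelled cell type could not be checked against markers because nothing was measured per gene.

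Heterochromatin is compact and mostly silent, euchromatin is accessible and holds the active genes, and along a chromosome they alternate in domains. EZH1 and EZH2 are the alternative catalytic subunits of PRC2, which methylates lysine 27 of histone H3 and so marks silenced developmental genes. A stretch called int can be a passage from a closed to an open domain, a weak spot inside a domain, or sequence to which no read could be assigned. All positions below are on mm9 and 1-based. No mm9 gene annotation or sequence was used here, so the stretches are given by position and neighbouring class and not by gene.

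Little of the intermediate chromatin in domains under 40 kb kept its call. Of the P14 wild-type int bins in domains under 40 kb, 17.0% were int in the knockout, with 45.3% het and 37.7% euch there. At 2 months 13.1% of the same bins were int, with 46.4% het and 40.5% euch. All 3 maps agreed on int for 3.14% of such bins of the knockout map, 3.50% of the 2-month map and 3.06% of the P14 wild-type map. Closed and open bins in domains of the same limit kept their class far more often. The shares called alike in all 3 maps were 49.8%, 54.3% and 53.4% for het, and 46.7%, 48.8% and 47.5% for euch, in the knockout, 2-month and P14 wild-type maps. Int was also the rarest class, at 11.5%, 10.8% and 11.9% of all autosomal bins in these maps. Het made up 46.0%, 46.2% and 45.4%, and euch 42.4%, 43.0% and 42.7%. A rarer class recurs less often in another map, and the agreement expected from these frequencies was not computed. The contrast therefore does not show int to be less stable than het or euch. Over all autosomal int bins, the domains of 40 kb or more included, 29.6%, 31.8% and 28.8% were int in all 3 maps. Most of those constant bins lay in 32 runs of 100 kb or more, outside the limits used here. They covered 72.8 Mb, against 9.60 Mb in the 1019 runs described here. Of the 32, 18 measured exactly 3000 kb, and whether reads could be assigned to them was not tested. An int domain of 4 to 38 kb held a constant run in 2.81% of cases in the knockout, 3.48% at 2 months and 2.63% in the P14 wild type.

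The constant runs fell into 2 kinds by length. Short runs, under 40 kb, numbered 919 and had a median of 4 kb. Of all runs, 67.3% were exactly 4 kb and 17.7% were 6 kb, 22 were 8 kb, and only 31 measured from 10 to 38 kb. The other kind was long: 100 runs of 40 to 98 kb, which made up 9.81% of the runs and 52.1% of their bases. Of these, 87 were exactly 48 kb long. No run measured 42 to 46 kb, and the 13 long runs of another length were spread from 40 to 98 kb.

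**Figure D1:**
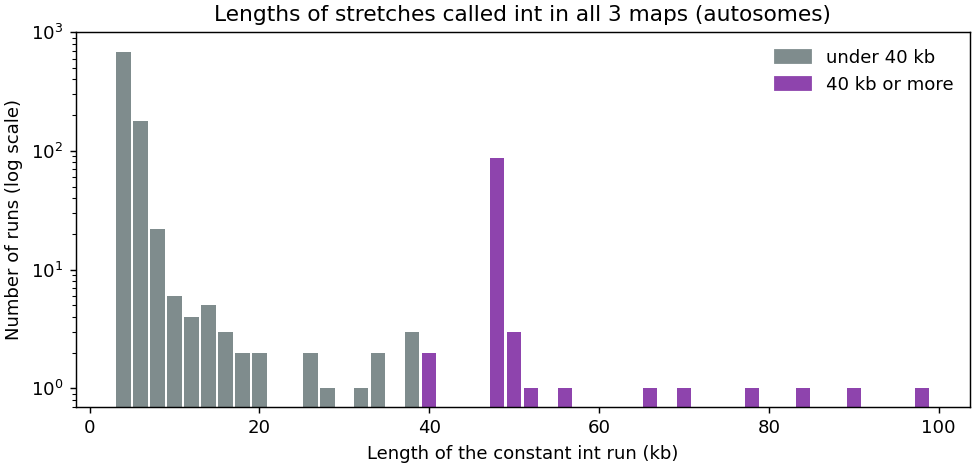
Number of constant int runs (log axis) by length in kb, for runs under 40 kb (grey) and of 40 kb or more (purple). Counts drop from 686 runs at 4 kb to 3 or fewer at each length from 16 to 40 kb, and 87 runs stand at 48 kb.

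The single length recurred in each map on its own. Int domains of exactly 48 kb numbered 79 in the knockout, 77 at 2 months and 82 in the P14 wild type, and 79, 76 and 82 of these held a long constant run. All domains of 30 to 46 kb numbered 38, 95 and 24 in the same order. Long int domains were therefore mostly constant, in contrast to short ones: of those of 40 to 98 kb, 100 of 103 in the knockout, 100 of 120 at 2 months and 100 of 101 in the P14 wild type held a long constant run. Their edges were fixed as well. For 71 of the 100 long runs the int domain was identical to the run in all 3 maps, against 80 of the 919 short runs (8.71%). Genome builds write gaps of unknown size as unknown bases of a set length, in which no read can be placed. Whether the 48 kb runs are such gaps was not tested, and in a gap a call of int would say nothing of chromatin. Long and short runs are therefore described apart.

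**Figure D2:**
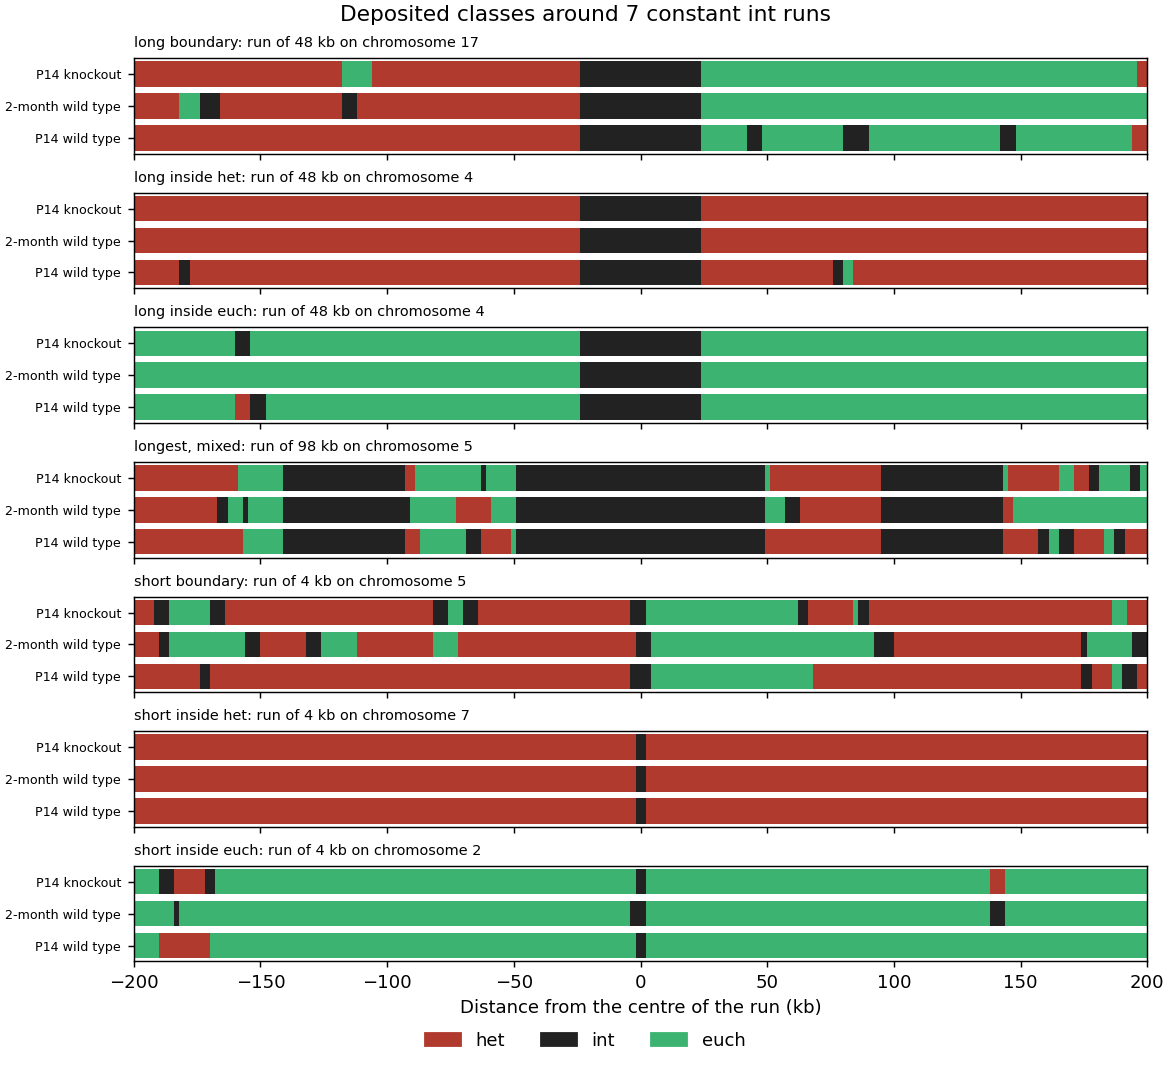
Deposited classes (het red, int black, euch green) in the P14 knockout, 2-month and P14 wild-type maps within 200 kb of 7 constant int runs, by distance from the centre of the run in kb. The runs of 48 and 98 kb have straight edges shared by all 3 maps, while the short boundary run on chromosome 5 lies in int domains of 6, 6 and 8 kb.

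Short runs stood most often between a closed and an open domain. Such a boundary, with het on one side and euch on the other, was seen at 57.1% of the 919 short runs in the knockout, 49.4% at 2 months and 60.0% in the P14 wild type. Het on both sides was seen at 18.8%, 24.4% and 17.5%, and euch on both sides at 23.2%, 25.4% and 21.7%, in the same order. The remaining 8 short runs ended at a chromosome end. Among all int domains of 4 to 38 kb chromosome ends were far rarer, at 11 of 32640 in the knockout, 10 of 26091 at 2 months and 11 of 34962 in the P14 wild type. Het on both sides was more frequent at these domains than at short runs in every map. Euch on both sides was less frequent at them in the P14 maps and slightly more frequent at 2 months. Boundaries made up 57.5%, 43.9% and 62.8% of these domains in the same order. Short runs were thus near them in the knockout, above them at 2 months and below them in the P14 wild type. The lower boundary share at 2 months than at P14 was seen in all int domains of this length and not in the constant runs alone. Int did not mark most boundaries in any map: passages between het and euch went through an int domain in 36.0% of cases in the knockout, 35.8% at 2 months and 36.0% in the P14 wild type, and were direct in the rest.

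**Figure D3:**
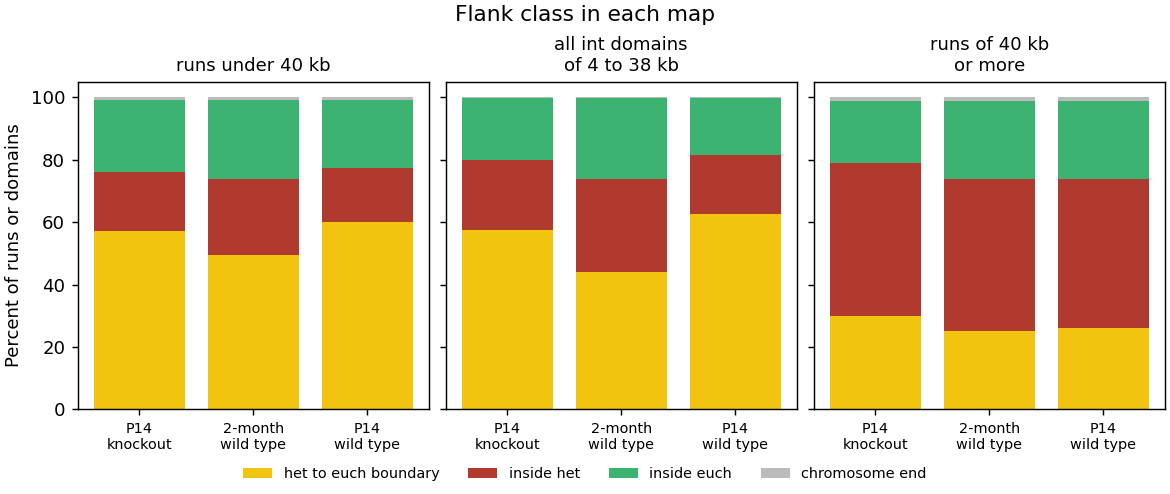
Percent of short runs, of all int domains of 4 to 38 kb, and of long runs with each flank class (boundary yellow, inside het red, inside euch green, chromosome end grey) in the P14 knockout, 2-month and P14 wild-type maps. Boundaries are the most frequent class in short runs and in int domains in general, and long runs have het on both sides in 48 to 49 of 100 cases in every map.

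Although the short runs stayed int, their surroundings often changed class. Of the 919, 416 (45.3%) had the same flank class in all 3 maps: 262 were boundaries throughout, 65 lay inside het, 81 inside euch and 8 at a chromosome end. Of the 503 others, the 2-month map was the one that differed in 201, the P14 wild type in 144 and the knockout in 121, and in 37 all 3 maps differed. A run that lay inside het in one map and inside euch in another was seen 56 times. These counts over all 3 maps have no background from other int stretches, so they are not shown to be particular to the constant runs.

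Against the P14 wild type, flank class differed at 302 of 919 short runs (32.9%) in the knockout, where the background, all runs of 4 to 38 kb that are int in these 2 maps whatever the other shows, was 36%. At 2 months it differed at 382 (41.6%), against a background of 44.7%. Both shares were slightly below the background. Of the 551 short runs that were boundaries in the P14 wild type, 397 (72.1%) were boundaries in the knockout, 73 lay inside het and 81 inside euch. At 2 months 329 (59.7%) of the same runs were boundaries, 107 lay inside het and 115 inside euch. Losses of a boundary were thus divided almost evenly between closed and open surroundings in both comparisons. Runs inside het in the P14 wild type lay inside het in the knockout in 89 of 161 cases and at 2 months in 93. Those inside euch lay inside euch in the knockout in 123 of 199 cases and at 2 months in 107. No background was computed for these passages from class to class, so they are not shown to be particular to the constant runs. The comparisons share the P14 wild-type map, so its errors enter both.

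The domains beside short runs were short in all 3 maps and longer at 2 months than at P14. The closed neighbour had a median length of 16 kb in the knockout, 20 kb at 2 months and 14 kb in the P14 wild type. The open neighbour had medians of 14, 18 and 14 kb. All int domains of 4 to 38 kb had neighbours of the same medians in each map, for both classes. Neighbours of 100 kb or more made up 5.72%, 10.8% and 6.39% of closed ones and 6.38%, 13.7% and 5.46% of open ones, in the same order. Beside all int domains of 4 to 38 kb these shares were 5.77%, 9.91% and 4.43% of closed ones and 7.03%, 12.3% and 5.43% of open ones.

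Paired by run, where the side had the same class in both maps, the closed neighbour was at least 1.5 times as long at 2 months as in the P14 wild type in 208 of 654 cases (31.8%; background 35.2%) and at least 1.5 times shorter in 138 (21.1%; background 23.7%). The open neighbour was that much longer at 2 months in 238 of 702 cases (33.9%; background 34.5%) and shorter in 133 (18.9%; background 22.1%). Lengthening was thus more common than shortening at 2 months, as it was at int stretches in general. In the knockout the closed neighbour was longer in 171 of 676 cases (25.3%; background 27.8%) and shorter in 194 (28.7%; background 27%). The open neighbour was longer in the knockout in 213 of 755 (28.2%; background 27.7%) and shorter in 175 (23.2%; background 22.9%). All these shares lay within 4 percentage points of the background.

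Bins beside short runs changed class more often than bins of the autosomes at large, at shares close to those beside other int domains. Within 20 kb of a short run 33.8% of 18300 bins had another class in the knockout than in the P14 wild type, where 24.6% of all autosomal bins did. At 2 months 37.5% did, against 27.4% of all autosomal bins. Beside the int domains of 4 to 38 kb of the P14 wild type the shares were 32.5% and 36.6%. The first bin next to a run is not int in at least 1 map by the rule, which favours a difference between maps there, and in it the shares were 50.2% in the knockout and 53.2% at 2 months. At a distance of 4 kb they were 33.7% and 39.8%, and at 100 kb 28.0% and 31.4%. Changes ran both ways, with 17.7% of bins called more open and 16.1% more closed in the knockout, and 18.6% and 18.8% at 2 months.

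**Figure D4:**
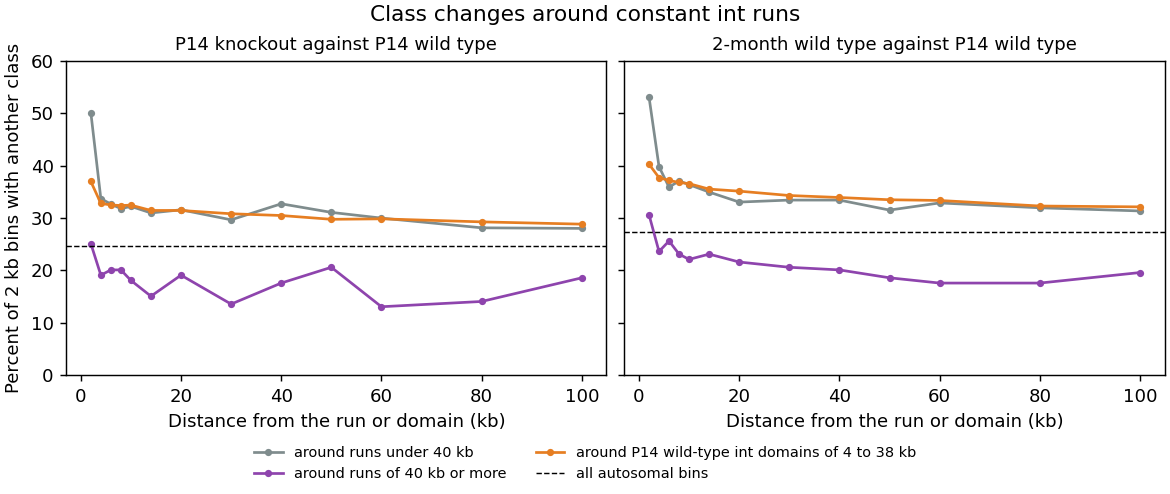
Percent of 2 kb bins with another class in the P14 knockout (left) or at 2 months (right) than in the P14 wild type, by distance in kb from short runs (grey), long runs (purple) and P14 wild-type int domains of 4 to 38 kb (orange), with all autosomal bins as a dashed line. From 4 kb on the grey and orange lines lie close together above the dashed line (24.6% left, 27.4% right), and the purple line lies below it.

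Of the 262 constant short boundaries, 243 had het on the same side in all 3 maps. The het side was on the left in 126 and on the right in 117, and in the 19 others of the 262 a map had the sides turned. Most of the step in class around them lay within 20 kb. At 4 kb from the run on the closed side 91.4% of the runs were het in the knockout, 90.1% at 2 months and 95.5% in the P14 wild type. At 20 kb the shares were 52.7%, 56.0% and 60.9%, and at 100 kb 42.4%, 46.1% and 44.9%. On the open side 92.2%, 94.7% and 94.7% were euch at 4 kb, 56.8%, 54.7% and 52.3% at 20 kb, and 51.0%, 50.2% and 49.4% at 100 kb. The autosomal shares were 46.0%, 46.2% and 45.4% for het and 42.4%, 43.0% and 42.7% for euch. At 100 kb het on the closed side was thus within 4 percentage points of its autosomal share in each map, while euch on the open side was above its own in all 3. Euch at 100 kb on the closed side was above it as well, at 47.7%, 45.7% and 49.4%, so this was not particular to the open side.

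**Figure D5:**
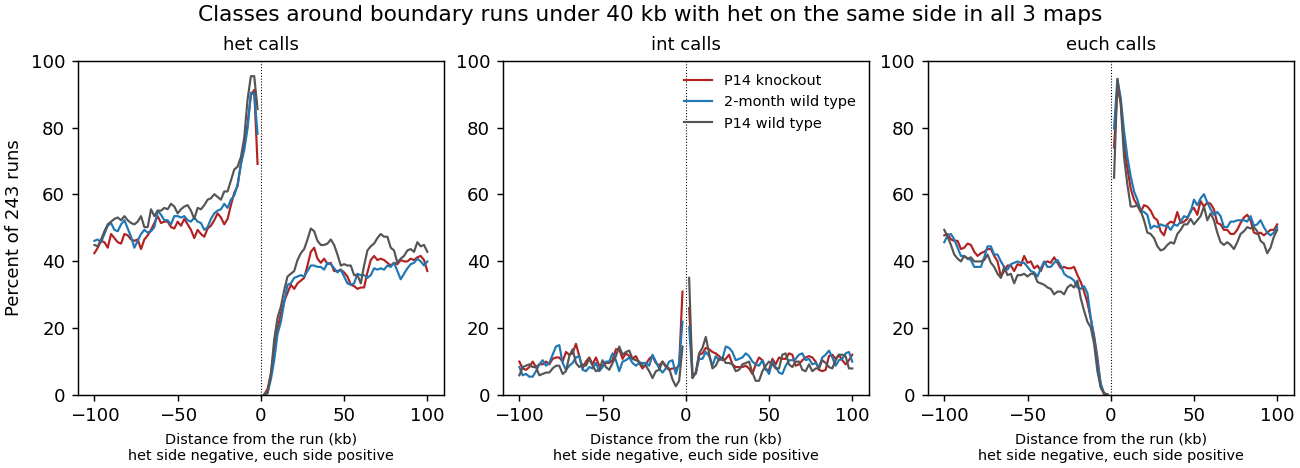
Percent of 243 short boundary runs that were het (left), int (middle) or euch (right) by distance in kb from the run, closed side negative and open side positive, in the P14 knockout (red), 2-month (blue) and P14 wild-type (grey) maps. Het calls on the closed side peak at 4 to 6 kb from the run and euch calls on the open side at 4 kb, and at 20 kb on the closed side het stands at 52.7%, 56.0% and 60.9%.

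The int edges of these boundary runs are set in part by the rule, since at each run edge the int domain of at least 1 map must end. On the closed side the int domain ended exactly with the run in 168 of 243 cases in the knockout (69.1%), 190 at 2 months (78.2%) and 208 in the P14 wild type (85.6%). On the open side it did so in 180 (74.1%), 194 (79.8%) and 158 (65.0%). No background was computed for these shares. Compared with the P14 wild type, int reached further into the closed side in the knockout at 61 runs (25.1%; background 22.7%) and less far at 18 (7.41%; background 18.2%). At 2 months it reached further there at 47 runs (19.3%; background 25.4%) and less far at 28 (11.5%; background 17.6%). On the open side int reached less far in the knockout at 56 runs (23.0%; background 22.6%) and further at 32 (13.2%; background 20.1%). At 2 months it reached less far there at 63 (25.9%; background 23.2%) and further at 30 (12.3%; background 24%). The background here is all boundary runs of 4 to 38 kb that are int in these 2 maps with het on the same side. Their edges are set by 2 maps and those of the 243 runs by 3, so the 2 sets are not fully alike.

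Where an edge differed from that of the P14 wild type, it was more often displaced towards the closed side, that is, with more bases called open. The comparisons share the P14 wild-type map, which had the largest difference between its edges of the 3 (85.6% at the run edge on the closed side and 65.0% on the open side), so the common direction is not 2 separate observations. Mean shifts were under 1 kb: the int edge on the closed side reached 0.63 kb further in the knockout and 0.43 kb further at 2 months than in the P14 wild type. On the open side the mean shifts were -0.10 and -0.21 kb. Within 20 kb of these 243 runs, 24.1% of bins had another class in the knockout than in the P14 wild type (background 28.9%), with 14.8% called more open (background 15.8%) and 9.28% more closed (background 13.1%). At 2 months 26.7% had another class (background 31.7%), with 16.4% more open (background 17.8%) and 10.3% more closed (background 13.9%). More bins were called open than closed in the background too, by a smaller margin. With 1 map per group these margins have no error.

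In 8 of the 243 boundaries, all neighbours on both sides measured 20 kb or more in all 3 maps, and the median of the shortest neighbour was 6 kb. The same count was not made for int boundaries in general, and the neighbours of all int domains of 4 to 38 kb had the same medians as those of short runs. The following short runs were picked after the values were seen, by the length of their shortest neighbour. The first was at chr5:38422001-38426000, with 60 kb of het on its left and 60 kb of euch on its right in the knockout, 70 and 88 kb at 2 months, and 166 and 64 kb in the P14 wild type. Its closed neighbour was shorter in both other maps than in the P14 wild type. At chr17:31148001-31152000 het and euch measured 52 and 42 kb in the knockout, 136 and 44 kb at 2 months, and 130 and 46 kb in the P14 wild type. At chr10:58606001-58610000 het and euch measured 100 and 148 kb in the knockout, 34 and 574 kb at 2 months, and 180 and 164 kb in the P14 wild type. Among the 5 boundaries picked by this rule, its open neighbour differed most between 2 months and the P14 wild type.

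Short runs inside het and inside euch sat in surroundings of their own kind. For each run the share of het was subtracted from that of euch in the surrounding 1 Mb, giving an openness score from -1 for closed to 1 for open. The 65 short runs inside het in all maps had a median score of -0.30 in the knockout, -0.36 at 2 months and -0.25 in the P14 wild type. The 81 inside euch had medians of 0.40, 0.43 and 0.42. The 262 boundary runs had medians of 0.08, 0.11 and 0.02, and 82.8%, 75.2% and 84.7% of them lay in mixed surroundings, within 0.5 of a score of 0. Of points spaced 100 kb along the autosomes, 66.3%, 56.4% and 75.6% did. Of all 919 short runs 78.7%, 68.6% and 83.7% did, so mixed surroundings were not particular to boundaries. Among the 503 whose flank class differed between maps the shares were 80.5%, 69.0% and 86.7%. They were 69.2%, 63.1% and 78.5% for runs inside het, and 63.0%, 51.9% and 67.9% for runs inside euch. The flank class of a run and the classes of its surroundings come from the same calls, so a link between them is built in.

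Inside het, the short run whose shortest neighbour was longest was a 4 kb run at chr7:23558001-23562000. It had 868 kb of het on its left and 346 kb on its right in every map, and scores of -0.99 in the knockout, -0.99 at 2 months and -0.98 in the P14 wild type. No edge of that stretch differed between the 3 maps, and whether the run is a gap in the genome build was not tested. Inside euch, the run with the longest neighbours was at chr2:44652001-44656000. Its open neighbours measured 166 and 136 kb in the knockout, 178 and 136 kb at 2 months, and 168 and 344 kb in the P14 wild type. The score around it was 0.71 in the knockout, 0.39 at 2 months and 0.80 in the P14 wild type. At chr15:44622001-44628000, a 6 kb run, the open neighbours differed by 4 kb at most, with 134 and 66 kb in the knockout, 138 and 66 kb at 2 months, and 136 and 64 kb in the P14 wild type.

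Long runs had other surroundings than short ones. Het lay on both sides of 49 of the 100 long runs in the knockout, 49 at 2 months and 48 in the P14 wild type. They were boundaries in 30, 25 and 26 cases and had euch on both sides in 20, 25 and 25, and 1 lay at a chromosome end. The same flank class was seen in all 3 maps at 50 of the 100, of which 31 were inside het, 12 inside euch, 6 boundaries and 1 at the chromosome end. Within 20 kb of long runs het made up 63.2% of bases in the knockout, 58.5% at 2 months and 60.4% in the P14 wild type, against autosomal shares of 46.0%, 46.2% and 45.4%.

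Calls beside long runs, taken over all 100, changed less often than over the autosomes. Within 20 kb 19.1% of 1990 bins had another class in the knockout than in the P14 wild type, below the autosomal 24.6%, and 24.0% did at 2 months, below 27.4%. Beside the 31 long runs that were inside het in all maps these shares were 7.58% and 9.03%, and beside the 12 inside euch 12.5% and 9.58%. Beside the 50 of mixed class they were above the autosomal ones, at 27.7% and 35.4%, and beside the 6 boundaries they were 20.8% and 35%. The closed neighbour of a long run had a median length of 54 kb in the knockout, 65 kb at 2 months and 32 kb in the P14 wild type. The open neighbour had medians of 18, 34 and 9 kb. Paired by run as above, the closed neighbour of a long run was at least 1.5 times longer in the knockout than in the P14 wild type in 36 of 106 cases and that much shorter in 21, and the open one longer in 15 of 53 and shorter in 11. At 2 months the closed neighbour was longer in 39 of 98 cases and shorter in 26, and the open one longer in 25 of 50 and shorter in 4. No paired background was computed for this length, at which most int domains hold a constant run. At 4 kb from long runs 19.1% of bins had another class in the knockout and 23.6% at 2 months. Around all P14 wild-type int domains of 40 to 98 kb the shares were 19% and 22.5%. Of these 101 domains 100 held a long run, so the 2 sets are nearly the same. The neighbours of long runs are few, and several runs share a region.

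Among named long runs, the longest of all measured 98 kb at chr5:143312001-143410000. Euch lay on both sides in the knockout (12 and 2 kb) and at 2 months (10 and 8 kb), while in the P14 wild type it had 2 kb of euch on the left and 46 kb of het on the right. The longest constant boundary measured 56 kb at chr5:139102001-139158000, and its int domain was 56 kb in every map. Its open side measured 78 kb in the knockout, 76 kb at 2 months and 58 kb in the P14 wild type, and its closed side 30, 4 and 22 kb. A 48 kb boundary lay at chr17:13758001-13806000. Het and euch there measured 82 and 172 kb in the knockout, 88 and 246 kb at 2 months, and 260 and 18 kb in the P14 wild type. The open side was longer in both other maps than in the P14 wild type.

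The longest run inside het in all maps measured 50 kb at chr14:5828001-5878000. Its neighbours were 222 and 426 kb in the knockout, 222 and 426 kb at 2 months, and 222 and 172 kb in the P14 wild type, with scores of -0.85, -0.85 and -0.84. The 48 kb run at chr4:122036001-122084000 had closed neighbours of 458 and 400 kb in the knockout, 538 and 382 kb at 2 months, and 154 and 52 kb in the P14 wild type. Other named runs inside het differed in other ways. At chr4:42112001-42160000 the closed neighbours measured 30 and 8 kb in the knockout, 14 and 8 kb at 2 months, and 30 and 38 kb in the P14 wild type.

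The longest run inside euch in all maps measured 78 kb at chr5:36972001-37050000. Its open neighbours were 28 and 46 kb in the knockout, 32 and 100 kb at 2 months, and 14 and 44 kb in the P14 wild type, and the 1 Mb around it scored -0.34, -0.24 and -0.46, so that het outweighed euch there in every map. The run at chr4:60762001-60810000 had open neighbours of 130 and 196 kb in the knockout, 392 and 196 kb at 2 months, and 124 and 196 kb in the P14 wild type, with scores of 0.79, 0.84 and 0.81. The same open domain of 392 kb at 2 months joined it to another 48 kb run at chr4:60322001-60370000, whose right neighbour measured 10 kb in the knockout and 12 kb in the P14 wild type.

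Short runs were on every autosome, at 0.28 per Mb on chromosome 7 to 0.51 per Mb on chromosome 15, with a median gap of 1649 kb to the next, and 516 of 919 (56.1%) had another short run within 1 Mb. Long runs were most frequent on chromosomes 4 (14), 5 (13), 7 (11) and 14 (11), and none was found on chromosomes 18 and 19. Of the 100 long runs, 41 had another long run within 1 Mb, and 7 groups of at least 3 were found by joining those less than 1 Mb apart. The largest group held 6 runs between 7888001 and 10222000 on chromosome 7, of which 5 measured 48 kb. A group of 5 lay between 5558001 and 7108000 on chromosome 14, and 4 runs of 48 kb lay between 145490001 and 146310000 on chromosome 4. Within the first 8 Mb of the chromosomes lay 11 of the 100 long and 30 of the 919 short runs (3.26%), and within the last 5 Mb lay 5 long and 38 short runs (4.13%). The share of the autosomes in these windows was not computed, nor the share of runs expected to have another within 1 Mb. These counts therefore do not show an excess or a lack at chromosome ends, or clustering.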

How the data were processed

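The authors deposited 9 lists of genome intervals on mm9, 1 for each class and group. Each interval has a start, an end and a class letter, and a score column that is 0 throughout. Bcl2fastq (2.19.0.316), STAR (2.4.2a) and bedtools are listed in the submitters' processing notes. The domain caller and its thresholds are not given in the sources used here. Per the labels, the 5 mice of a group point to the same lists (4 of 5 for euch at 2 months), so each list was read as a pool.

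Lists were read on their 2 kb grid with Python 3.11.15, NumPy 2.4.6 and SciPy 1.17.1 and plotted with Matplotlib 3.10.9. Runs, flank classes, neighbour lengths, int edges, flank bins (20 kb) and 1 Mb scores were computed on the autosomes. With 1 map per group, no test was made. The procedure was tested on simulated data, where 857 of 857 planted runs were found with the right class. Each planted run had the same flank class in all simulated maps. Runs of mixed class, turned sides and chromosome ends were therefore not tried. Named regions are the longest runs of each flank class, with ties, frequent at 48 kb, taken in chromosome order, and others as stated. Members and rules were chosen with earlier results of these data known.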

Additional observations from a re-analysis of the deposited data

Results flagged for a closer look

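Chromosome X lies outside the autosomal comparisons and held 111 constant int runs of 4 kb to under 100 kb, 81 short and 30 long, of which 26 measured 48 kb. Short runs stood at 0.49 per Mb on X and 0.37 per Mb on the autosomes.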

How the results depend on the processing

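No paired analysis was possible because each list pools the mice of its group, and no mouse could be left out for the same reason. Over all 1019 runs, boundary shares were 54.5% in the knockout, 47.0% at 2 months and 56.6% in the P14 wild type, 45.7% of runs had one flank class in all maps, and flank bins changed in 32.4% (knockout) and 36.1% (2 months). The counts depended on the length limits and on the maps required to be int. A minimum of 2 kb gave 2017 runs, with a boundary share of 43.2% at 2 months and 39.2% of runs of one flank class in all maps. A minimum of 8 kb gave 153 runs and 5772 kb, in which long runs weigh more. Boundary shares were then 31.4% in the knockout, 28.1% at 2 months and 30.7% in the P14 wild type, and 49.0% had one flank class. Flank bins changed in 24.1% (knockout) and 28.6% (2 months), and closed neighbours had medians of 30, 41 and 29 kb in the knockout, 2-month and P14 wild-type maps. A maximum under 40 kb left 4596 kb, a P14 wild-type boundary share of 60.0% and flank changes of 33.8% (knockout) and 37.5% (2 months). Int in both P14 maps alone gave 6109 runs and 34450 kb, and in both wild-type maps 4534 runs and 27206 kb.

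Passing over neighbours under 10 kb gave boundary shares of 39.7% in the knockout, 32.7% at 2 months and 40.1% in the P14 wild type, and weighting by bases 41.2%, 34.9% and 41.2%. Flank changes were 34.6% (knockout) and 39.0% (2 months) within 10 kb, and 29.2% and 32.2% within 100 kb. Mean lengths were 50.4, 63.2 and 42.4 kb for closed and 31.5, 51.7 and 27.9 kb for open neighbours, in the same order of maps. Leaving out 1 autosome gave 936 to 997 runs and 8484 to 9498 kb. The 2-month map had the lowest boundary share of the 3 under each of the 6 alternatives that gave one. Of 104 alternative values, 66 stayed within 1.5 times, or within the 95% interval for shares, and 38 did not. The 66 include every value without 1 autosome. Leaving out 1 of 19 autosomes could hardly move a total by 1.5 times, so the tally makes the other results look more stable than they were. The 95% interval counts runs or neighbouring bins of a map as if they were independent. It served only as a yardstick for the size of a shift and holds no spread between mice.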
